A study of Homo sapiens with 12 samples.

Results

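POC1B, GALNT4 and POC1A are 3 of the 58780 genes counted, and all 3 were among the 26688 with enough counts to be tested. The rule that chose them names these genes and uses no measured value, but it was set with earlier results of these data known. POC1B is the host gene, GALNT4 is an intronless gene lying inside an intron of POC1B on the same strand, and POC1A is the paralogue of POC1B on another chromosome. The cells were HEK293, derived from human embryonic kidney, here a Flp-In T-REx derivative. They were transfected with small interfering RNAs (siRNAs) against the SAFB genes, which encode nuclear RNA-binding proteins. The 4 groups, of 3 libraries each, were triple KD (siRNAs against SAFB, SAFB2 and SLTM together), SAFB1 KD (against SAFB, whose protein is SAFB1), SLTM KD (against SLTM) and control (negative control siRNA only). Single knockdowns were topped up with control siRNA, and all groups share the parental line, the transfection and the poly(A) selection. An siRNA lowers its target without removing it, so no group is a null. Libraries with SAFB2 alone lowered are not analysed here.

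POC1A and POC1B are WD40-repeat proteins of the centriole, the barrel of microtubules at the core of centrosomes and at the base of cilia. They bind the inner wall of the centriole and keep it intact, and inherited loss of POC1B is known to damage cone photoreceptors while loss of POC1A causes a short-stature syndrome. GALNT4 is one of the polypeptide GalNAc-transferases, Golgi enzymes that attach the first sugar of mucin-type O-glycans to serine and threonine, and it prefers substrates that already carry such sugars. A gene nested in the intron of another gene on its strand is transcribed as part of the host pre-mRNA, and is normally removed with the intron when the host is spliced.

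The libraries held 56856228 to 75533510 gene counts. The siRNA targets stood at 16.5% to 23.1% of control in the libraries given their siRNA, and SAFB2 reached 166% of control in SAFB1 KD. The 9 HEK293 marker genes summed to 1661 to 1682 CPM (counts relative to library size, with TMM factors applied) in triple KD and 1745 to 1779 CPM in control libraries. Most of that sum was VIM (group means of 1077 to 1163 CPM), while PAX2 had group means of 3.66 to 5.17 CPM and PAX8 of 0.044 to 0.095 CPM. The 5 squamous and 5 leukocyte markers summed to under 1 CPM in every library. The 5 fibroblast markers summed to 13.6 to 15.4 CPM and the 5 colon epithelium markers to 27.6 to 33.5 CPM over all libraries. These sums were carried by single genes, COL1A1 (group means of 11.9 to 12.9 CPM) and CDX2 (28.7 to 31.8 CPM), with the other colon markers tested at group means of 0.21 CPM or less. No listed marker was at 0 in all libraries. No 2 replicates agreed within counting noise. The edgeR p-values rest on a spread among replicate libraries pooled over the 4 groups. That spread was moderated with the other genes (median prior degrees of freedom 51), so small p-values do not come from 3 libraries per group alone.

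What a count can mean at this locus follows from the annotation (GENCODE release 44 on GRCh38, the build of the files but a later release than the one used for counting). POC1B spans chr12:89419718-89526047 on the minus strand, and its main transcript has 12 exons. GALNT4 occupies chr12:89519412-89524796, a single exon of 5385 bases inside intron 2 of POC1B, which is 27777 bases long. It begins 323 bases after exon 2 of POC1B and ends 22069 bases before exon 3. A read-through gene, POC1B-GALNT4 (chr12:89519408-89526262), is annotated as well. It splices the first exons of POC1B to an acceptor inside the coding sequence of GALNT4, so that its last exon covers most of GALNT4. In the counting mode named in the methods, a read that touches exons of more than 1 gene on its strand is left out. Of the exonic bases of GALNT4, 356 (6.61%) belong to no other gene on the strand, and all of them lie before the read-through acceptor. Among 16028 protein-coding genes tested, 37 (0.231%) had an own share as low. POC1B-GALNT4 owns 219 bases (3.98%), of which 215 lie before the annotated start of POC1B. POC1B owns 8517 bases (97.1%), and 8106 of these, 95.2%, lie downstream of GALNT4. The POC1B count is therefore a measure of RNA that reached the exons after GALNT4, the GALNT4 count is a measure of its first 356 bases, and RNA from the remaining 5029 bases of GALNT4 enters neither count. All 2274 exonic bases of POC1A (chr3:52075226-52154690, minus strand) are its own.

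**Figure D1:**
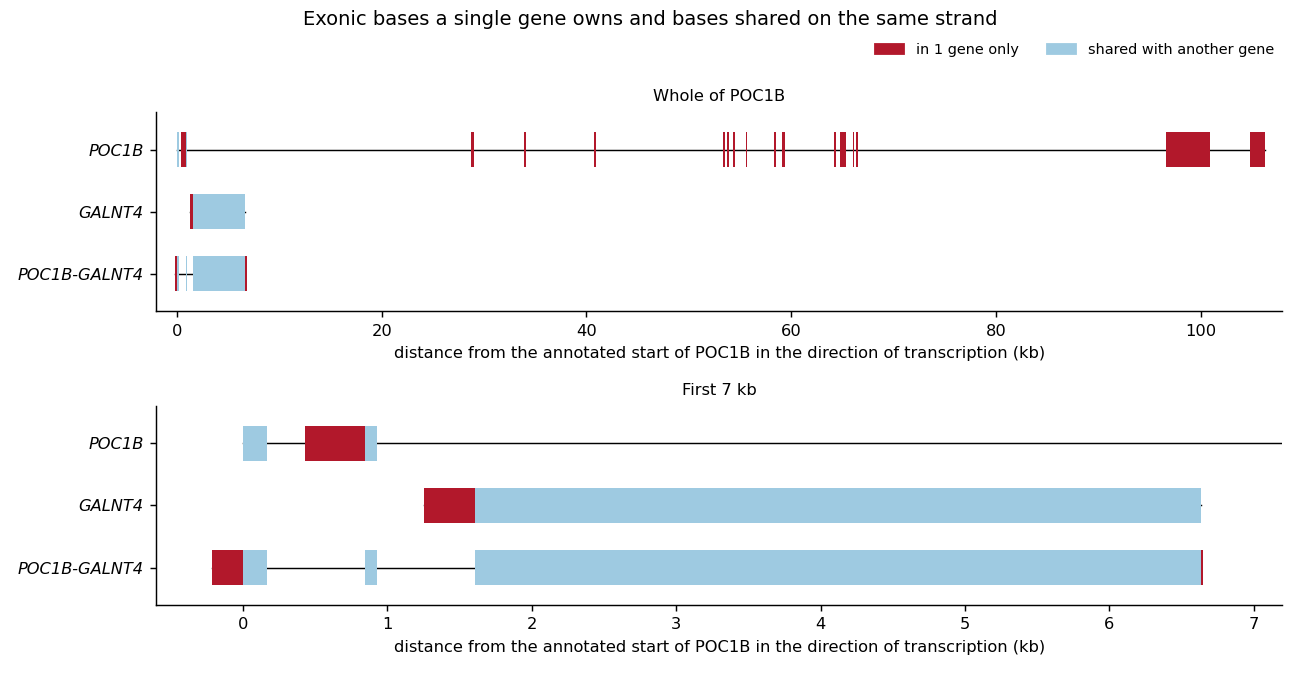
Exonic bases of POC1B, GALNT4 and POC1B-GALNT4 by distance from the annotated start of POC1B (x axis, kb in the direction of transcription), for the whole of POC1B (top) and its first 7 kb (bottom). Red blocks are in 1 gene only (219 bases of POC1B-GALNT4, 356 of GALNT4 and 8517 of POC1B) and blue blocks are shared on the strand; thin blocks are widened to be visible.

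The sequences that set this geometry are shown because the GALNT4 count and the read-through both turn on them. They were read from GRCh38, on the minus strand, 5′ to 3′. In the first, the coding part of the strip owned by GALNT4 (chr12:89524441-89524549, 109 bases), capitals mark the start codon and the AG that ends the read-through intron. In the others, capitals mark the 2 intron bases at the splice site, with 15 bases on either side of the exon boundary. They are the donor after exon 2 of POC1B (chr12:89525105-89525134), used by both the host and the read-through, the acceptor of POC1B exon 3 (chr12:89497328-89497357) and the read-through acceptor in GALNT4 (chr12:89524426-89524455).
GALNT4 start codon to acceptor: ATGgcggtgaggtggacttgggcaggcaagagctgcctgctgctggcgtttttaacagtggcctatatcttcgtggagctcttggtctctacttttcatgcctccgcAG
Shared donor: acggcaagcaacttgGTaagtcttattctt
POC1B exon 3 acceptor: tctatttcttgatAGctactgcttcttggg
Read-through acceptor: ttcatgcctccgcAGgagccggccgtgcca

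The read-through joins 100 coding bases from the first POC1B exons to the last 1625 of the 1734 coding bases of GALNT4. The frame is kept: the 109 bases skipped and the 100 bases gained each leave 1 base over a multiple of 3. GAAGAA, the purine word that the study ties to SAFB binding, occurs once in the coding sequence of GALNT4 and in neither of the other 2 on the sense strand. On the opposite strand it occurs once in POC1B. Of 15644 coding sequences compared, 69.5% hold it on the sense strand. Only coding sequences were searched, which is 32.2% of the GALNT4 transcript, and introns were not. Adenine made up 27.7% of the coding sequence of GALNT4, 29.9% of POC1B and 22.4% of POC1A, beside a median of 25.3%.

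POC1B was the member that changed most, and it was lower in every knockdown. Its levels were 2.12, 2.12 and 2.10 CPM in triple KD libraries, 11.7, 12.4 and 12.02 CPM in SAFB1 KD, 18.4, 18.3 and 18.0 CPM in SLTM KD, and 22.4, 21.997 and 21.1 CPM in control. The 4 groups did not overlap at any point of this order. The means were 2.11 ± 0.0125 CPM in triple KD, 12.04 ± 0.344 CPM in SAFB1 KD, 18.2 ± 0.195 CPM in SLTM KD and 21.8 ± 0.688 CPM in control (SD, n = 3 each), which put triple KD, SAFB1 KD and SLTM KD at 9.67%, 55.1% and 83.5% of control. The triple KD libraries held 121, 147 and 133 reads of POC1B, with exact Poisson intervals at 95% of 100.4 to 145, 124 to 173 and 111 to 158 that cover counting error only. In bulk RNA, a lower level in every cell and a loss in some of the cells cannot be told apart.

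POC1B fell in triple KD against control by 3.37 ± 0.0649 on the log2 scale (SE; adjusted p = 1.26e-47, edgeR), a comparison in which 40.3% of all genes tested passed. It was also past a test against a 2-fold change (glmTreat, adjusted p = 8.63e-39), which 0.955% of genes passed, and its log2 fold change was number 154 from the lowest of 26688. In SAFB1 KD against control, where 9.66% of genes passed, it fell by 0.86 ± 0.0469 (adjusted p = 9.01e-23). In SLTM KD against control, where 9.26% passed, it fell by 0.26 ± 0.0444 (adjusted p = 1.69e-05).

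Every other pair of groups was past the test for POC1B as well. Triple KD lay below SAFB1 KD by a log2 fold change of -2.51 ± 0.0721 (adjusted p = 4.81e-38; 34.9% of genes passed) and below SLTM KD by -3.11 ± 0.0677 (adjusted p = 1.1e-44; 36.3% passed). SAFB1 KD lay below SLTM KD by -0.60 ± 0.0489 (adjusted p = 2.93e-15; 16% passed). The log2 changes of the single knockdowns sum to -1.12, which would leave 46.1% of the control level, and triple KD departed from that sum by a further -2.25 ± 0.087 (adjusted p = 8.12e-31; 21.4% of genes passed). SAFB2 was lowered only in triple KD, so its share in this departure cannot be told apart from a departure of the other 2 from additivity.

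**Figure D2:**
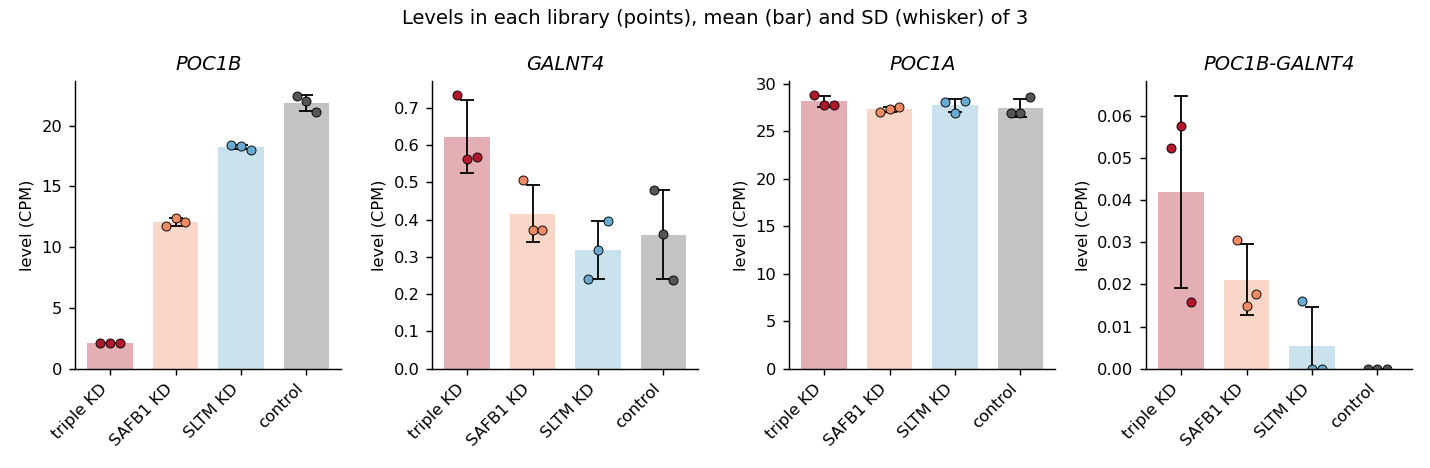
Levels of POC1B, GALNT4, POC1A and POC1B-GALNT4 in CPM (y axes, from 0, each its own scale) in triple KD, SAFB1 KD, SLTM KD and control libraries (x axis); points are libraries, bars with whiskers the mean and SD of 3. POC1B is at 2.11 CPM in triple KD against 21.8 CPM in control, while POC1A is at 28.1 and 27.5 CPM.

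The GALNT4 count, limited to its 356 own bases, was low in each group and higher in triple KD. The counts were 42, 39 and 36 in triple KD libraries, 33, 25 and 21 in SAFB1 KD, 15, 19 and 23 in SLTM KD, and 30, 27 and 18 in control. As levels these were 0.735, 0.563 and 0.568 CPM in triple KD, 0.506, 0.371 and 0.372 CPM in SAFB1 KD, 0.241, 0.319 and 0.395 CPM in SLTM KD, and 0.479, 0.363 and 0.238 CPM in control. All triple KD libraries lay above all others, and the other 3 groups overlapped each other. The Poisson intervals of the lowest triple KD count, 25.2 to 49.8 for 36 reads, and of the highest control count, 20.2 to 42.8 for 30 reads, overlapped. The means were 0.622 ± 0.0981 CPM in triple KD, 0.416 ± 0.0774 CPM in SAFB1 KD, 0.318 ± 0.0774 CPM in SLTM KD and 0.36 ± 0.12 CPM in control (SD, n = 3 each).

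GALNT4 rose in triple KD against control by a log2 fold change of 0.80 ± 0.255 (SE; adjusted p = 0.00779, edgeR) and against SLTM KD by 0.96 ± 0.269 (adjusted p = 0.00269). The call against control rested on single libraries: without control replicate 3 the log2 fold change was 0.56 (adjusted p = 0.0986), and without triple KD replicate 1 it was 0.67 (adjusted p = 0.0614). Its difference between triple KD and SAFB1 KD was 0.56 ± 0.252 and did not pass (adjusted p = 0.0764), but passed without SAFB1 KD replicate 1 (0.74, adjusted p = 0.0458). Neither single knockdown was called against control, with 0.24 ± 0.274 in SAFB1 KD (adjusted p = 0.711) and -0.16 ± 0.293 in SLTM KD (adjusted p = 0.85), and the 95% intervals of these differences, -0.30 to 0.77 and -0.73 to 0.41, leave room for changes of either direction. Beyond the sum of both single knockdowns, triple KD stood 0.72 ± 0.386 higher without passing the test (adjusted p = 0.199), and the SAFB1 KD minus SLTM KD difference was 0.40 ± 0.289 (adjusted p = 0.42). In the order of levels, SLTM KD, control, SAFB1 KD and triple KD, no 2 neighbours were past the test.

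POC1B-GALNT4, the read-through, was counted on its own bases alone. Its counts were 3, 4 and 1 in triple KD libraries, 2, 1 and 1 in SAFB1 KD, 1, 0 and 0 in SLTM KD, and 0 in each control library. Every triple KD and SAFB1 KD library held at least 1 such read and no control library did. The 8 reads of triple KD, taken as exact, put it 2.99-fold above a floor of 3 counts set for the control group. With the low end of their exact Poisson interval at 95% (3.45 to 15.8), the fold over that floor was 1.29. The interval of 0 reads reaches up to 3.69, above the floor, so neither fold is a lower bound on the change. The edgeR test gave adjusted p = 0.0154, and the test against a 2-fold change did not pass (glmTreat, adjusted p = 0.481). The read-through met the filter of 10 counts over the 12 libraries only through its triple KD reads, so its passing the edgeR test cannot serve as support. The 4 reads of SAFB1 KD have an interval of 1.09 to 10.2, which reaches below the floor, so no fold is given. The edgeR test of SAFB1 KD against control did not pass (adjusted p = 0.204). SLTM KD, with 1 read, lay under the floor (adjusted p = 0.625). Nearly all of these own bases lie before the annotated start of POC1B, so the reads show RNA that began upstream of it, and not where that RNA was spliced.

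Levels of the 2 genes can be set side by side only per kb of own exonic bases. In triple KD GALNT4 stood at 1.75 ± 0.276 CPM per kb and POC1B at 0.248 ± 0.00147 CPM per kb. In SAFB1 KD they stood at 1.17 ± 0.217 and 1.41 ± 0.0404 CPM per kb, in SLTM KD at 0.894 ± 0.217 and 2.14 ± 0.0229, and in control at 1.01 ± 0.338 and 2.56 ± 0.0807 (SD, n = 3 each). The strip of GALNT4 is short against a sequenced fragment, which lowers the number of reads that can fall wholly inside it, and the own bases of POC1B include alternative and retained-intron exons. Both levels per kb are therefore low by unmeasured amounts, so which of the 2 genes was higher within a group was not established.

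Within a library the ratio of 2 genes does not depend on depth. The log2 ratio of GALNT4 to POC1B counts (0.5 added to each) was -1.76 ± 0.214 in triple KD, -4.84 ± 0.287 in SAFB1 KD, against -5.83 ± 0.365 in SLTM KD and -5.95 ± 0.453 in control (SD, n = 3 each). Over the 4 groups it differed by an exact permutation test (p = 0.000455 over 369600 arrangements). Triple KD exceeded control by 4.19 and SAFB1 KD exceeded control by 1.11, without overlap of the libraries in either pair. Most of both differences is the fall of POC1B in the denominator, with log2 fold changes of -3.37 and -0.86, beside 0.80 and 0.24 for GALNT4. The ratio is thus no evidence of a rise of GALNT4 apart from its own test. SLTM KD and control overlapped, with a difference of 0.12 and an exact permutation p of 0.7. With 3 libraries against 3, the two-sided exact test of a pair cannot go below p = 0.1, which the 5 other pairs of this ratio and the 6 pairs of POC1A to POC1B reached (adjusted p = 0.109 over 12 pairs).

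**Figure D3:**
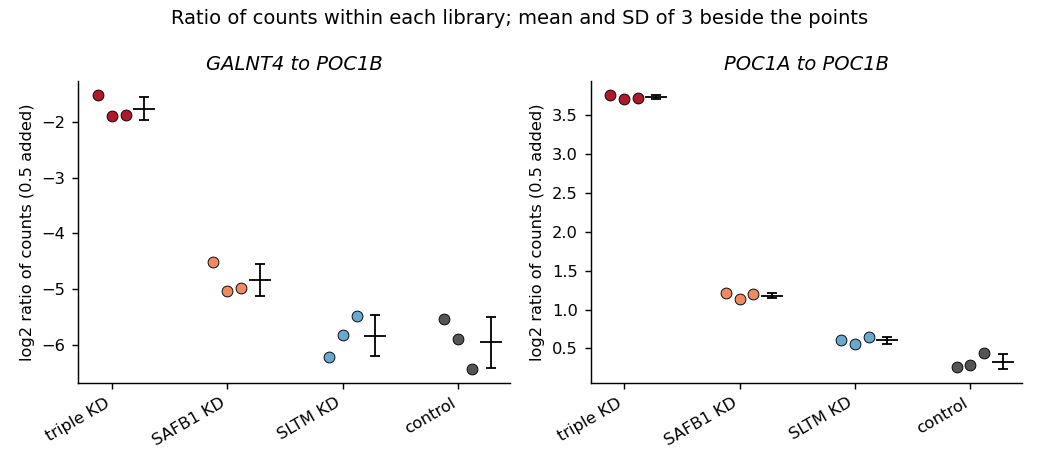
Log2 ratio of counts (y axes, 0.5 added to each count) of GALNT4 to POC1B (left) and POC1A to POC1B (right) in triple KD, SAFB1 KD, SLTM KD and control; points are libraries, with the mean and SD of 3 beside them. GALNT4 to POC1B is at -1.76 in triple KD and -5.95 in control, and SLTM KD overlaps control on that ratio alone.

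POC1A, the paralogue, was at about the same level in all libraries. Its levels were 28.8, 27.8 and 27.8 CPM in triple KD, 27.1, 27.3 and 27.5 CPM in SAFB1 KD, 28.1, 26.9 and 28.2 CPM in SLTM KD, and 26.9, 26.9 and 28.6 CPM in control. Each knockdown overlapped control, and the 3 triple KD libraries lay just above the 3 of SAFB1 KD. Against control the log2 fold change was 0.03 ± 0.0376 in triple KD (adjusted p = 0.554, edgeR), -0.01 ± 0.0378 in SAFB1 KD (adjusted p = 0.929) and 0.01 ± 0.0379 in SLTM KD (adjusted p = 0.922). The 95% intervals, -0.04 to 0.11, -0.08 to 0.06 and -0.06 to 0.09, bound any change of POC1A to well under that of POC1B in triple KD and in SAFB1 KD. None of the other contrasts passed for it either, with adjusted p from 0.44 to 0.79. The log2 ratio of POC1A to POC1B was 3.73 ± 0.0287 in triple KD, 1.18 ± 0.0365 in SAFB1 KD, against 0.60 ± 0.0464 in SLTM KD and 0.33 ± 0.0944 in control, and differed over the groups by the exact permutation test (p = 6.49e-05, the smallest that the 369600 arrangements can give).

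Reads of the paralogues can be told apart. The coding sequences of the main transcripts were 66.4% identical over 1212 aligned bases, and the proteins they encode, of 407 and 478 residues for POC1A and POC1B, 59.6% identical over 406 aligned residues. The longest exact run shared by any annotated transcripts of the 2 genes was 13 bases.

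**Figure D4:**
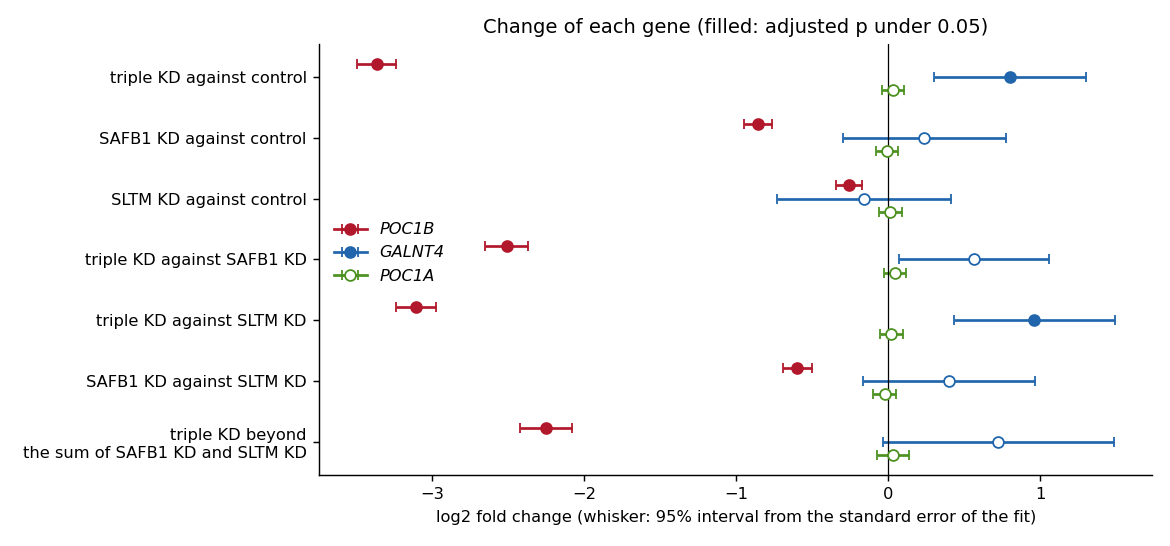
Log2 fold change (x axis) of POC1B, GALNT4 and POC1A in the 6 comparisons of groups and in triple KD beyond the summed single knockdowns (rows); whiskers are 95% intervals, and filled points have an adjusted p under 0.05. POC1B is below 0 in every row, at -3.37 in the top one, and POC1A lies at 0 throughout.

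The neighbours of POC1B had far smaller changes. Of 8 other genes tested within 500 kb, 2 were called higher and 2 lower in triple KD, beside 19.4% higher and 20.9% lower over all genes, and with a range of log2 fold change from -0.99 to 0.55. POC1B-AS1, an antisense noncoding gene that starts within the span of GALNT4 on the opposite strand, had 2.84, 3.41 and 3.27 CPM in triple KD libraries and 2.08, 2.07 and 2.34 CPM in control libraries. It rose by 0.55 ± 0.106 (adjusted p = 1.25e-05) and was called in SAFB1 KD too (0.36 ± 0.109, adjusted p = 0.023), though not in SLTM KD (0.20 ± 0.113, adjusted p = 0.326). Its counts depend on reads being assigned to the correct strand. ATP2B1, a plasma membrane calcium pump, rose to 248 CPM in triple KD, against 206 CPM in control (log2 fold change 0.26, adjusted p = 6.18e-16). DUSP6, a phosphatase of the ERK pathway, was called lower (-0.17, adjusted p = 0.00436), as was the unnamed ENSG00000274021 (-0.99, adjusted p = 0.00265) at 0.239 CPM in triple KD and 0.481 CPM in control.

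Around POC1A, 32 other genes were tested within 500 kb. In triple KD 12 were called higher (PPP2R5CP, RAD54L2, GRM2, GLYCTK, PHF7, WDR82, NISCH, TWF2, PBRM1, DUSP7, BAP1 and RPL29) and 5 lower (ABHD14B, TNNC1, TWF2-DT, UQCC5 and TEX264). The shares over all genes in triple KD are those given for the neighbours of POC1B. In SAFB1 KD 1 gene near POC1A was called higher, TWF2, and 1 lower, ABHD14B, in a comparison where 9.66% of all genes were called.

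**Figure D5:**
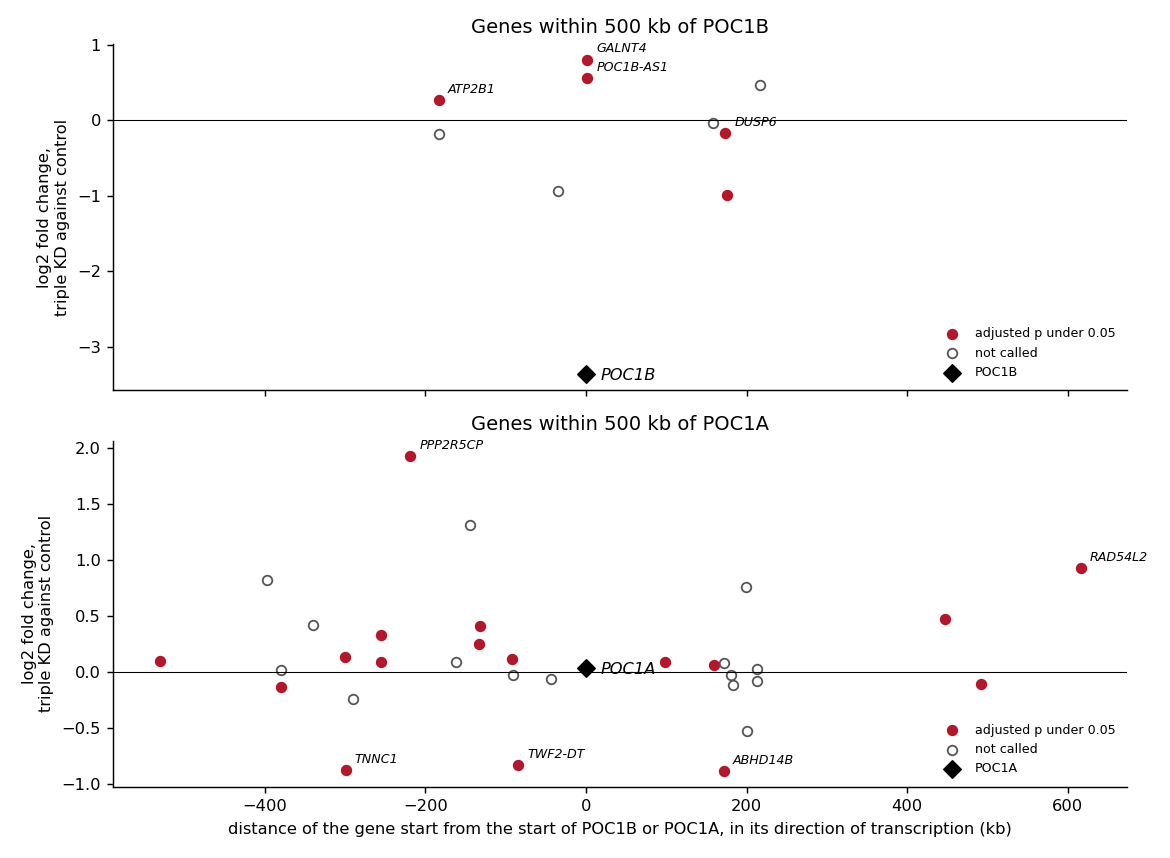
Log2 fold change between triple KD and control (y axes) of genes within 500 kb of POC1B (top) and POC1A (bottom) by distance between gene starts (x axis, kb); red points have an adjusted p under 0.05, white points do not, and the diamond is POC1B or POC1A itself. POC1B lies at -3.37, below every neighbour, the lowest of which is at -0.99.

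Other centriole genes changed by less than POC1B, and in both directions. Of 30 genes for centriole assembly and the centriole lumen, 9 were called higher and 8 lower in triple KD (56.7%, beside 40.3% of all genes), with a median log2 fold change of 0.02 beside -0.0044 over all genes tested. Their range, -0.75 to 0.29, does not reach the value of POC1B. C2CD3, which is needed for the distal appendages of the centriole, was the most clearly lower (-0.42, adjusted p = 4.68e-16), followed by CEP44 (-0.37, adjusted p = 6.41e-11). PLK4, the kinase that starts centriole duplication, and its partner STIL were higher (0.29, adjusted p = 8.48e-11, and 0.21, adjusted p = 8.35e-10). Of the genes known to lie with POC1B in the inner scaffold of the centriole, POC5 (0.14, adjusted p = 0.00473) and CETN3 (0.16, adjusted p = 0.000186) were higher and FAM161A lower (-0.19, adjusted p = 0.000295). WDR90 (0.07, adjusted p = 0.132) and CETN2 (-0.03, adjusted p = 0.545), of the same structure, were not called, nor was CCDC15 (0.03, adjusted p = 0.796). In SAFB1 KD 4 of the 30 were called higher (CEP152, CEP85, C2CD3 and CETN3) and 4 lower (CEP350, CEP44, CEP63 and CCDC15), 26.7% of the list beside 9.66% of all genes. In SLTM KD 5 were called, each of them higher (CEP192, PPP1R35, CENPJ, STIL and CEP295), 16.7% of the list beside 9.26%. The shares over all genes include many genes with few counts, unlike most of this list. Among the 19048 genes kept by a stricter count filter (filterByExpr), 5378 were called higher and 5298 lower in triple KD. The same filter gave 1519 and 1256 in SAFB1 KD, and 1154 and 1456 in SLTM KD. A larger share in the list is therefore not read as a trait of centriole genes. The genes of this list were named after their values were seen.

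Among the other GalNAc-transferases, 18 of 19 had enough counts to be tested. In triple KD 33.3% of these were called, beside 40.3% of all genes. The 2 called higher were GALNT2 (0.24, adjusted p = 2.93e-15) and GALNT14 (0.18, adjusted p = 0.000123). Of the 4 called lower, GALNT1 (-0.46, adjusted p = 3.01e-22) and GALNT3 (-0.45, adjusted p = 1.64e-18) changed most, and GALNT6 and GALNT11 had -0.18 each. The median was -0.04. At 222 CPM in triple KD and 188 CPM in control GALNT2 was the most counted of the family. None of those called reached the log2 fold change of GALNT4, 0.80, but their counts, unlike those of GALNT4, were not limited to a short strip of the gene.

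The enzymes that extend or cap the O-glycan after a GalNAc-transferase were the last list. Of 13 tested, 6 (46.2%) were called lower in triple KD and 0 higher, beside 20.9% lower and 19.4% higher over all genes. The other 7 were not called, with GCNT3 at 0.61 and ST6GALNAC1 at 0.34. In SLTM KD 3 of the 13 were called, each lower (23.1%, beside 9.26% of all genes called), and in SAFB1 KD 1 was called lower (7.69% beside 9.66%). As with the centriole list, a larger share is not read as a trait of these enzymes. The median log2 fold change was -0.16, beside -0.0044 over all genes tested. C1GALT1, which adds the galactose of core 1, stood at 12.7 CPM in triple KD and 19.6 CPM in control (log2 fold change -0.62, adjusted p = 5.68e-17). It was called lower in SAFB1 KD (-0.39, adjusted p = 9.89e-09) and in SLTM KD (-0.29, adjusted p = 9.23e-06) as well. Its chaperone C1GALT1C1 (-0.14), the sialyltransferases ST6GALNAC3 (-0.47), ST6GALNAC4 (-0.33) and ST3GAL1 (-0.16), and GCNT4 (-1.27), a branching enzyme at under 1 CPM, were the other 5 called lower in triple KD.

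Other retrogenes nested in a host on its strand allow a comparison of values side by side. YY2 stood at 10.5 CPM in triple KD and 1.91 CPM in control (2.46) and its host MBTPS2 at 22.4 and 74.2 CPM (-1.73). RBMXL1 stood at 59.9 CPM in triple KD and 33.4 CPM in control (0.84) and its host KYAT3 at 8.8 and 28.6 CPM (-1.70). UTP14C had 8.71 CPM in triple KD and 10.7 CPM in control (-0.30) and ALG11 14.8 and 11.7 CPM (0.34), while MCTS2 had too few counts to be tested inside HM13 (-0.37). POC1B had the lowest log2 fold change of these 5 hosts. The own share of the nested gene was 60.3% for YY2, 92.9% for RBMXL1, 0.427% for MCTS2 and 0% for UTP14C, against 6.61% for GALNT4. UTP14C was counted although release 44 leaves it no base of its own, so the earlier release differs there, and it was not established that the strip of GALNT4 is the same in both.

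The genes whose levels ran most like those of POC1B over the 12 libraries, by the root mean square difference in log2 CPM after each gene's control mean was taken off, were CFAP45, CEACAM19, ZNF571-AS1, FAR2 and GUCY1B2, at 0.395 to 0.707 among 14358 genes that averaged 1 CPM or more in some group. CFAP45, a protein of ciliary microtubules, was the nearest, with log2 fold changes against control of -3.91, -1.26 and -0.79 in triple, SAFB1 and SLTM knockdown. It stood at 1.69 CPM in control. In triple KD CFAP45, ZNF571-AS1 and GUCY1B2 were at 0.111, 0.176 and 0.35 CPM, so their folds rest on few reads. For GALNT4 the most similar genes were LRRFIP1P1, RPS6P25, GDF9, ENTREP2 and LINC00632 (0.205 to 0.237), and for POC1A MAPKBP1, PPP1R7, KRT18, UCK2 and QPRT (0.0196 to 0.0258). Many genes lie near POC1A by this measure, since a gene that does not change resembles any other such gene.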

How the data were processed

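Poly(A)-selected, strand-specific RNA of 12 HEK293 libraries was sequenced. The authors trimmed reads with cutadapt, aligned them to GRCh38 with STAR 2.7.9a (version from the submitters' processing notes) and an earlier GENCODE release, and deposited raw, reverse-stranded read counts per gene, 1 library per file. Replicates were not pooled. Reads that touch exons of several genes on a strand, or fit several places, are absent from such counts. Of 58780 gene IDs, 58207 were found in GENCODE release 44, which supplied symbols, coordinates and own exonic bases.

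Groups came from the sample titles. The 26688 genes with at least 10 counts over the 12 libraries were fitted in edgeR 4.0.16 (R 4.3.3) with TMM factors and a term for group. Quasi-likelihood F tests were two-sided, with Benjamini-Hochberg adjustment over all genes and a threshold of 0.05. Unless stated, gene-level adjusted p-values are edgeR's. The biological coefficient of variation was 2.14%. The fit was tested on simulated data. Count ratios within a library were compared by exact permutation tests in Python 3.11.15. Alternatives were other scaling (upper quartile, RLE), no filter, filterByExpr, DESeq2 1.42.0, limma-voom (limma 3.58.1), only the libraries compared, a replicate block, each library left out in turn, and pseudocounts of 0 and 2 for the ratios.

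Genes named were the 3 members, the read-through, called genes within 500 kb of POC1B or POC1A, the 5 genes most like each member, and in each list those with the smallest adjusted p or a stated reason. The members and lists were chosen with earlier results of these data known. Files of other samples were not used here. Poisson intervals and floors cover counting error only.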

Additional observations from a re-analysis of the deposited data

How the results depend on the processing

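Of 806 values recomputed under an alternative, 789 kept their direction and their side of the threshold, or moved by less than the allowed spread. Leaving out each library in turn gave log2 fold changes against control of -3.39 to -3.35 (triple KD), -0.89 to -0.84 (SAFB1 KD) and -0.29 to -0.24 (SLTM KD) for POC1B, which was called each time. Leaving out libraries gave 0.56 to 1.04 for GALNT4 in triple KD against control, 0.44 to 0.74 in triple KD against SAFB1 KD, -0.0074 to 0.47 in SAFB1 KD against control and -0.40 to 0.078 in SLTM KD against control. For POC1A it gave -0.037 to 0.0096 in SAFB1 KD and -0.010 to 0.036 in SLTM KD against control. The sign changes among these concern values that were not called; the calls of GALNT4 that ended without 1 library (control replicate 3 or triple KD replicate 1) or appeared without 1 (SAFB1 KD replicate 1) are those given with its results, and their cause was not tested beyond the smaller number of samples. Over the other settings GALNT4 in triple KD against control ranged from 0.79 to 0.84, with adjusted p from 0.00516 to 0.0308.

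Where it was tested, the read-through had an adjusted p from 0.00936 to 0.0458 in triple KD against control. Under the filter of 10 counts it was tested only because of its triple KD reads, so staying called across settings adds no support. With no filter its adjusted p was 0.0361. It was below the filter with filterByExpr, with only the libraries compared and without triple KD replicate 2, and DESeq2 gave it no adjusted p. Counts of all genes called higher moved more: 1345 in SAFB1 KD against control became 750 to 834 without control replicate 1, 2 or 3 or SAFB1 KD replicate 1 or 2, and 962 in SLTM KD against control became 1552 with upper-quartile scaling and 565 without control replicate 2. The side that held most calls changed with upper-quartile scaling in 5 comparisons, with shares called higher of 54.96% beside 48.1% in triple KD against control, 55.9% beside 46.6% in triple KD against SAFB1 KD, 52.0% beside 48.2% in triple KD against SLTM KD, 57.5% beside 38.9% in SLTM KD against control and 43.2% beside 57.8% in SAFB1 KD against SLTM KD. In SAFB1 KD against control it changed from 52.2% to 40.3% with no filter, to 49.0% with only the libraries compared, and to between 40.0% and 45.4% in 9 of the 12 fits without 1 library. The few other changes of side, in comparisons with triple KD, reached at most 50.4%.

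Same-numbered libraries of different groups deviated together in 13 of 18 pairs (correlation over 0.1, with median 0.152 and range -0.0461 to 0.262). Different-numbered libraries did so in 1 of 36 pairs (median -0.0768), and 11 of 12 libraries correlated best with their own number. The replicate numbers therefore mark variation shared across groups, which the main fit and the permutation tests of the ratios leave out. The sample titles do not say what the numbers stand for, so a fit with them is given beside the main one. With the replicate number as a block, 5348 genes were called higher and 5761 lower in triple KD, 1847 and 1569 in SAFB1 KD (1345 and 1232 without it) and 1311 and 1861 in SLTM KD (962 and 1509 without it) against control, GALNT4 had 0.80 (adjusted p = 0.00516), and the calls of POC1B, GALNT4, POC1A and the read-through did not change. Few reads limit GALNT4 and the read-through most, with 15 to 42 and 0 to 4 per library, counted on 6.61% and 3.98% of their exonic bases.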
